A study of Mus musculus with 6 samples.

Results

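The 10 genes described here are a set that marks endothelial cells, the cells that line blood vessels: Pecam1, Cdh5, Tek, Tie1, Flt1, Kdr, Eng, Nos3, Vwf and Ly6c1. They were taken by name from the normalised count table, which holds 24935 genes, and all 10 were present and were among the 17778 genes tested. By the names of the deposited columns, which the study text may contradict, in the hippocampus of hyperoxia-exposed mice transcripts of 5 of them (Vwf, Kdr, Tie1, Tek and Cdh5) were higher than in air-exposed mice, Ly6c1 was lower by 48.2%, and Pecam1, Flt1, Eng and Nos3 did not pass the test. The changes ran from 1.68 times the air level for Vwf to 0.518 times for Ly6c1.

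The RNA came from the left hippocampus of C57BL/6 mouse pups of both sexes at postnatal day 14 (P14). The Hyperoxia group was kept with its dam in 85% oxygen from P2 to P14, and the Air group was kept in room air over the same days. No transgene or drug was used in either group, and whole hippocampal tissue was sequenced with no sorting of cells, so each library holds RNA from neurons, glia and vessels together. There were 3 libraries per group, 1 animal each, here called Air 1 to 3 and Hyperoxia 1 to 3 after the deposited columns, whose numbers are not tied to particular animals. Directions are hyperoxia relative to air by the names of those columns, and no gene in this design gives a separate check of the names. The fold changes that the study gives as hyperoxia against air appear to carry the opposite sign for the same libraries, and the files do not settle which naming is right. If the column names were exchanged, every rise given here would be a fall and every fall a rise, while the sizes, errors and tests would stand.

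Endothelial cells join into a tight sheet through adhesion molecules such as platelet endothelial cell adhesion molecule (Pecam1) and vascular endothelial cadherin (Cdh5). Their growth and survival depend on vascular endothelial growth factor (VEGF), read through the receptors Kdr and Flt1, and on the angiopoietins, read through Tek with its partner Tie1. In the brain these cells also form the blood-brain barrier, and the hippocampal vessel bed is still growing during the early postnatal weeks in the mouse.

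Reads on genes came to between 30384052 and 38746972 per library, recovered from the deposited values, and the members had between 206 and 2124 reads each, so counting error was at most 6.97% (Nos3, the lowest). The first principal component, with 52.7% of the variance, placed the Air libraries between 25.9 and 35.6 and the Hyperoxia libraries between -39.3 and -20.2. Hyperoxia 2 stood apart on the second component (19.5% of the variance), at 38.7 against -22.6 to 5.45 for the others. Hyperoxia 3 and Air 3 held the most transcript of Ttr, a choroid plexus gene, in their groups, at 7454 and 887 normalised reads. Results were therefore also computed without each library in turn and without this pair, and values are given where they changed the call of a member. For other named genes such changes are given in part, some only as the count of their list. Over all genes, 5425 were called, 7594 had an unadjusted p under 0.05, and the median log2 change was -0.01. In bulk tissue, fewer endothelial cells and less RNA per endothelial cell cannot be told apart.

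Promoters of endothelial genes are known for sites of the ETS family of transcription factors, so the proximal promoters were searched for the letters AGGAAG, or CTTCCT for the other strand, an ETS core with flanks. RefSeq windows (GRCm38.p6, 250 bases before to 50 after the start) were at hand for 6 of the members, Eng, Flt1, Kdr, Ly6c1 (with 2 starts), Tek and Tie1. The letters stood in 4 of these 7 windows, and in 35.4% of all 32851 promoter windows of the same length. Tie1 and Kdr are shown as receptors whose transcripts were higher in hyperoxia, and Ly6c1 as the member that was lower. Each is written 5′ to 3′ on the strand of the gene, all 3 genes being on the minus strand, with matches in capitals.
Tie1 (chr4:118489800-118490099): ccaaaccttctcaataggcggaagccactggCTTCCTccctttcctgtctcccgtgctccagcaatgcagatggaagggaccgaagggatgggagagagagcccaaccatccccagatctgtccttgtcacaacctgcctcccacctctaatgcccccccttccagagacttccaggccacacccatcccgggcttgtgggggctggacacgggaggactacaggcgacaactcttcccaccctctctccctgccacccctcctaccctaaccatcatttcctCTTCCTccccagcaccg
Kdr (chr5:75978406-75978705): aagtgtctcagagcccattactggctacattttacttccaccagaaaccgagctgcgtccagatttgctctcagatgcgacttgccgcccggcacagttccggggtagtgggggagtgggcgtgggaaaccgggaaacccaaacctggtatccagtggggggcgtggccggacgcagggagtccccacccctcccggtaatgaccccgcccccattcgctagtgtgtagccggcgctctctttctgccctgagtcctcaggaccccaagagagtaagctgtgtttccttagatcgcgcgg
Ly6c1 (chr15:75048614-75048913): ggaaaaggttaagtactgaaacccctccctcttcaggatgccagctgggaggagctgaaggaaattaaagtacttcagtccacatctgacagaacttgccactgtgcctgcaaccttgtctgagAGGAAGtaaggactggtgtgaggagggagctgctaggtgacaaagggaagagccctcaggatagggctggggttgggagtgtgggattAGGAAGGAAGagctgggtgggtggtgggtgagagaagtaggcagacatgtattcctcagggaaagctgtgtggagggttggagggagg
The Tie1 window held 2 matches, the Kdr window 0, and the Ly6c1 window 3, of which the last pair overlap and stand as a single run of capitals. The second Ly6c1 start (chr15:75048788-75049087) held 0, the Tek window 0, and the Eng and Flt1 windows 2 each. The members that were higher therefore include a gene with these letters and genes without them, and of the 4 members that were not called, Pecam1 and Nos3 were not searched.

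By limma with Benjamini-Hochberg adjustment over all 17778 genes, 5 members were called higher, beside 14.9% of all tested genes, and 1 was called lower, beside 15.6%. The lowest hyperoxia value lay above the highest air value for 6 members (22.3% of all genes) and the highest hyperoxia value lay below the lowest air value for 2 members (23.8% of all genes). The median log2 change of the 10 was 0.33. Values below are normalised read counts, library reads divided by 1 size factor, and fold changes are on the scale of log2 of the value plus 1.

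**Figure D1:**
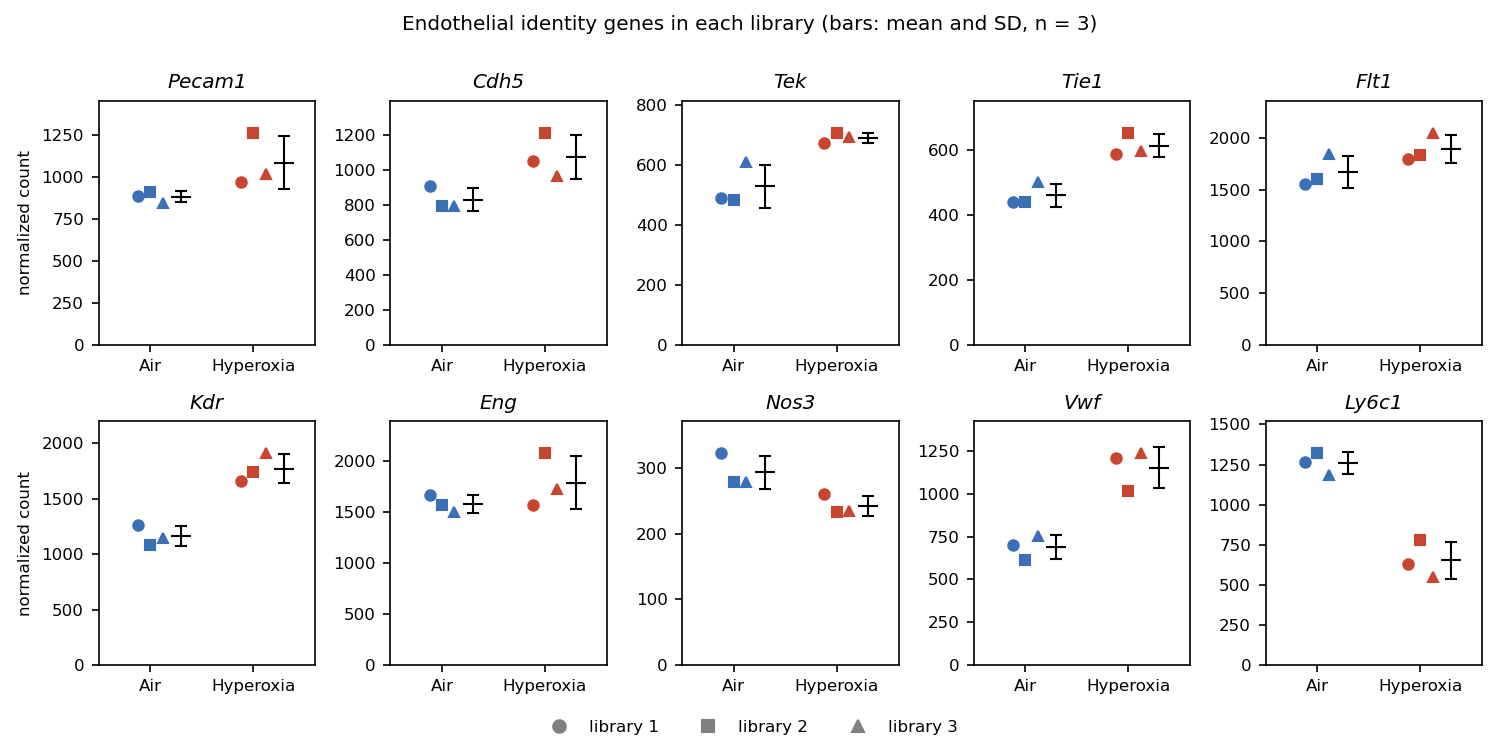
Normalised read count (vertical axis, from 0) of each of the 10 members in the 3 Air and 3 Hyperoxia libraries, with the group mean and SD. Vwf and Kdr stand higher in all 3 Hyperoxia libraries, Ly6c1 stands lower in all 3, and the groups of Flt1 and Eng overlap.

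Kdr (also known as VEGFR2) is the main signalling receptor for VEGF-A on endothelial cells, and its gene lies on the minus strand at chr5:75932827-75978458 (GRCm38). It read 1267, 1082 and 1145 in Air 1 to 3 and 1657, 1744 and 1913 in Hyperoxia 1 to 3. Every hyperoxia-exposed mouse was above every air-exposed mouse, and the gap exceeded the range inside either group. The mean rose from 1164 ± 94.0 to 1771 ± 130 (SD, n = 3 each), 1.52 times, with a log2 change of 0.61 ± 0.09 (SE) and a limma adjusted p of 0.0016. The call stood in all 17 alternatives run, with adjusted p from 8.2e-08 to 0.014.

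Flt1 (VEGFR1) binds VEGF-A more tightly than Kdr but signals weakly, and its soluble form acts as a decoy. The gene lies at chr5:147561604-147726011, minus strand. The counts were 1552, 1607 and 1848 in air and 1800, 1836 and 2050 in hyperoxia, so Air 3 lay above both Hyperoxia 1 and Hyperoxia 2. The log2 difference was 0.19 ± 0.09 (limma adjusted p = 0.14), with a 95% interval from -0.02 to 0.39, and it was not called in any of the 17 alternatives. The gene-level count does not part the soluble from the membrane form.

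Within each library, the ratio of Flt1 to Kdr was 1.23, 1.49 and 1.61 in air and 1.09, 1.05 and 1.07 in hyperoxia. The hyperoxia ratios were close to each other and all below the air ratios, which were more spread. The log2 difference was -0.42, and the exact two-sided permutation test gave p = 0.1, the smallest value that 3 against 3 libraries allow, so this design cannot bring a ratio below 0.05. Adjusted over the 8 ratios examined, exact p became 0.2.

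Tek (TIE2) is the receptor of the angiopoietins, of which Angpt1 is its agonist and Angpt2 a context-dependent antagonist. It is encoded at chr4:94739289-94874976, plus strand. The counts were 491, 485 and 612 in air and 675, 709 and 694 in hyperoxia. The 3 hyperoxia-exposed mice lay close together (coefficient of variation 2.42%), while Air 3 stood above the other 2 air-exposed mice and nearer to the hyperoxia values. Tek rose by 30.9%, from 529 ± 71.6 to 693 ± 16.7, with a log2 change of 0.40 ± 0.10 and a limma adjusted p of 0.019. It was not called without Air 1 (adjusted p = 0.087), Air 2 (0.090) or Hyperoxia 1 (0.051), where the log2 change stayed at or above 0.34.

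Tie1 modulates Tek when the 2 receptors pair. Its gene is at chr4:118471191-118490061, minus strand. It read 440, 440 and 501 in air and 586, 652 and 596 in hyperoxia, with no overlap and with like spread in both groups. The mean rose by 32.9%, from 460 ± 35.4 to 612 ± 35.5 (log2 change 0.41 ± 0.09, limma adjusted p = 0.010). Without Air 1 the adjusted p was 0.052 and without Air 2 it was 0.054, and the call stood in the other 15 alternatives. The proportion of the 2 receptors did not separate the groups, as the ratio of Tie1 to Tek was 0.896, 0.906 and 0.819 in air and 0.868, 0.920 and 0.860 in hyperoxia (log2 difference 0.02, exact permutation p = 0.8).

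**Figure D2:**
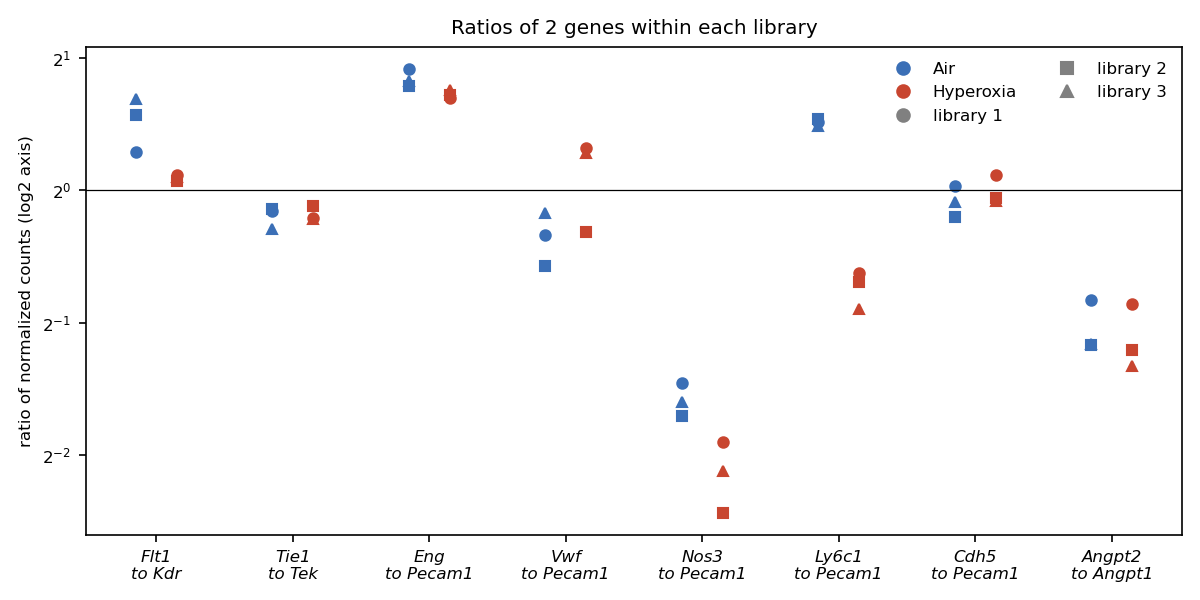
Ratios of normalised read counts within each library, Air and Hyperoxia shown side by side with 3 points each. The Flt1 to Kdr and Ly6c1 to Pecam1 ratios are lower in all 3 Hyperoxia libraries, and the Tie1 to Tek ratios of the groups overlap.

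Cdh5 is the cadherin of endothelial adherens junctions and holds neighbouring cells together. The locus is chr8:104101625-104144511, plus strand. The counts were 904, 790 and 794 in air and 1049, 1210 and 963 in hyperoxia. The groups did not overlap, although Air 1 came within a short distance of Hyperoxia 3. Cdh5 rose by 29.6%, from 829 ± 65.0 to 1074 ± 125 (log2 change 0.37 ± 0.10, limma adjusted p = 0.023). The call was lost without Air 2 (adjusted p = 0.096), without Air 3 (0.085), without Hyperoxia 1 (0.061) and with limma run without its mean-variance trend (0.063).

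Pecam1 (CD31), at chr11:106654217-106750628 on the minus strand, is the adhesion molecule of endothelial cell borders that most studies use to stain vessels, and it is also made by platelets and some leukocytes. It read 885, 910 and 845 in air and 969, 1262 and 1018 in hyperoxia. All 3 hyperoxia-exposed mice were above the air-exposed mice, with Hyperoxia 2 well above the other 2. The difference of 23.1%, from 880 ± 32.7 to 1083 ± 157, did not pass the test (log2 difference 0.29 ± 0.10, 95% interval 0.06 to 0.53, limma adjusted p = 0.062). It passed under DESeq2 on the recovered reads (adjusted p = 0.037) and after correction for transcript length and GC content (0.028), and the log2 difference was 0.18 without Hyperoxia 2. The ratio of Cdh5 to Pecam1 did not separate the groups (log2 difference 0.08, exact permutation p = 0.4).

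Eng (endoglin) is a co-receptor that presents bone morphogenetic protein 9 (BMP9) to the receptor ALK1 on endothelial cells. It is encoded at chr2:32646595-32682669, plus strand. It read 1671, 1573 and 1501 in air and 1568, 2082 and 1727 in hyperoxia, so the groups overlapped and Hyperoxia 2 was the highest of all. The log2 difference was 0.17 ± 0.11 (95% interval -0.06 to 0.41, limma adjusted p = 0.24) and was 0.06 without Hyperoxia 2. After correction for length and GC content it was 0.27 with an adjusted p of 0.027. Of its exon bases, 1.51% lie under Fpgs on the opposite strand (mean value 434). Per unit of Pecam1, Eng was lower in every hyperoxia-exposed mouse, at 1.62, 1.65 and 1.70 against 1.89, 1.73 and 1.78 (log2 difference -0.12, exact permutation p = 0.1).

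Nos3 is endothelial nitric oxide synthase, which makes the gas that relaxes vessel walls. The locus is chr5:24364810-24384474, plus strand. The counts were 323, 279 and 279 in air and 260, 233 and 235 in hyperoxia. Every hyperoxia-exposed mouse lay below every air-exposed mouse, but the gap between the groups was smaller than the range among the air-exposed mice. The mean was 17.4% lower, 243 ± 15.0 against 294 ± 25.4, and this did not pass the test (log2 difference -0.27 ± 0.11, 95% interval -0.52 to -0.03, limma adjusted p = 0.086) in the main fit or in any of the 17 alternatives. The ratio of Nos3 to Pecam1 was 0.365, 0.306 and 0.330 in air and 0.268, 0.185 and 0.230 in hyperoxia, again without overlap (log2 difference -0.57, exact permutation p = 0.1). In the annotation 25.2% of the exon bases of Nos3 lie under the antisense gene Gm15587 (mean value 11.9) and 7.12% under Atg9b on the opposite strand (121), so Nos3 reads could be shared with these if counting ignored the strand, which is not stated.

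Vwf encodes von Willebrand factor, the clotting protein that endothelial cells store in Weibel-Palade bodies and that megakaryocytes and platelets also carry. The gene lies at chr6:125546774-125686679, plus strand. It read 700, 613 and 753 in air and 1209, 1017 and 1240 in hyperoxia. The lowest hyperoxia-exposed mouse was well above the highest air-exposed mouse. Vwf rose from 688 ± 70.7 to 1155 ± 121, 1.68 times, with a log2 change of 0.75 ± 0.11 and a limma adjusted p of 0.0015, and it was called in all 17 alternatives. It was the member with the largest rise, and 5.60% of all tested genes had a larger log2 change. Per unit of Pecam1, Vwf was 0.790, 0.673 and 0.891 in air and 1.25, 0.805 and 1.22 in hyperoxia. On this ratio the groups overlapped, as Hyperoxia 2 lay below Air 3 (log2 difference 0.46, exact permutation p = 0.2). The platelet and megakaryocyte list had 0 of 4 tested genes called (1 higher without Air 2 or without Hyperoxia 3, 2 after length and GC correction). Its log2 differences went both ways, at 0.86 for Pf4, 0.23 for Gp1bb, -0.14 for Itga2b and -0.51 for Gp5. Pf4 read 19, 35 and 17 in air and 43, 55 and 30 in hyperoxia. The summed level of the list was 1119 to 1204 in air and 1108 to 1721 in hyperoxia, of which Gp1bb averaged 982 and 1175. The part of these cells in the Vwf result was not tested.

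Ly6c1 is a small protein anchored to the outer membrane by a lipid, found on brain endothelium and on some leukocytes. Its gene is at chr15:75044018-75048830, minus strand. The counts were 1264, 1322 and 1185 in air and 628, 780 and 547 in hyperoxia. The groups were far apart, and the highest hyperoxia-exposed mouse was still well below the lowest air-exposed mouse. Ly6c1 fell by 48.2%, from 1257 ± 68.8 to 652 ± 118, with a log2 change of -0.96 ± 0.12 and a limma adjusted p of 9.8e-04, and it was called in all 17 alternatives (adjusted p from 1.4e-10 to 0.012). Of all tested genes, 97.8% had a larger log2 change. Per unit of Pecam1, Ly6c1 was 1.43, 1.45 and 1.40 in air and 0.648, 0.618 and 0.537 in hyperoxia (log2 difference -1.25, exact permutation p = 0.1). Of the stretches of 75 bases in its transcripts, 14.7% also occur in Ly6c2 and 4.37% in Ly6a, so reads there cannot be given to 1 gene with certainty. Ly6c2, its close copy and a monocyte marker, had at most 1 read in any library, and Ly6a averaged 177 in air and 149 in hyperoxia and was not called (limma adjusted p = 0.22).

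**Figure D3:**
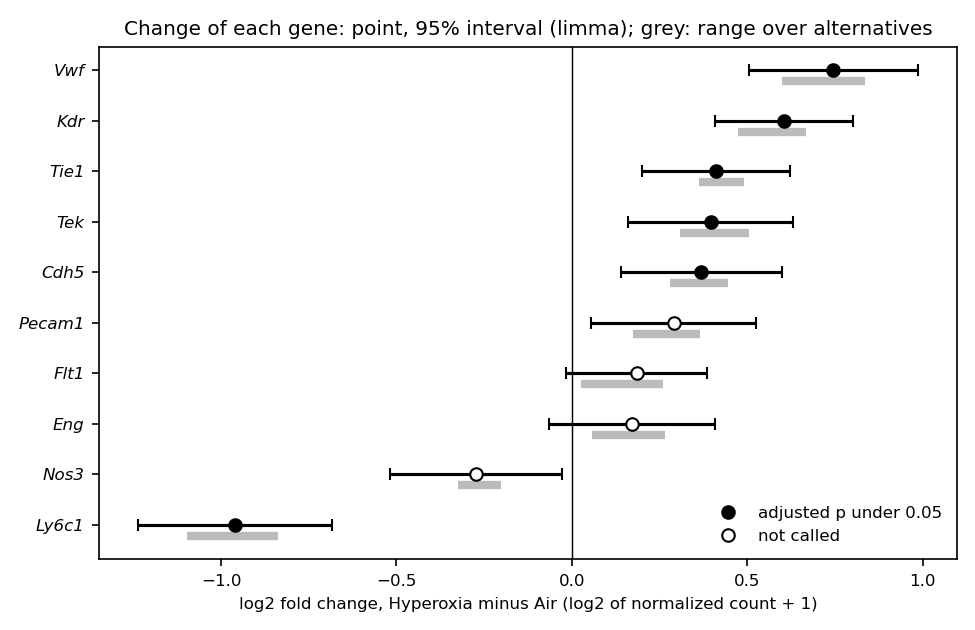
Log2 fold change of hyperoxia relative to air for the 10 members, with 95% confidence intervals from limma and called genes marked. Vwf (0.75), Kdr (0.61), Tie1, Tek and Cdh5 lie to the right of 0, Ly6c1 (-0.96) lies to the left, and the intervals of Flt1 and Eng include 0.

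The order of the members among all tested genes was Vwf, Kdr (8.25% of genes with a larger change), Tie1 (15.1%), Tek (15.9%), Cdh5 (17.3%), Pecam1 (22.6%), Flt1 (31.2%), Eng (32.4%), Nos3 (76.8%) and Ly6c1. All 10 kept their sign in all 17 alternatives. Hyperoxia 2 had the highest value of its group for 6 members (Pecam1, Cdh5, Tek, Tie1, Eng and Ly6c1), and Hyperoxia 3 for Flt1, Kdr and Vwf. The summed level of the 10 genes was 9099 to 9496 in the air-exposed mice and 10402 to 11525 in the hyperoxia-exposed mice, which did not overlap.

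Levels can be compared between genes only per length, so the counts were divided by the exon length of each gene in kilobases. In air, Ly6c1 was the most abundant at 749 ± 41.0 normalised reads per kb, followed by Eng (391 ± 21.0) and Cdh5 (197 ± 15.5). Pecam1 (141 ± 5.25), Kdr (129 ± 10.4), Flt1 (124 ± 11.7) and Tek (112 ± 15.2) came next, and neighbours in this run overlapped between libraries. Tie1 (93.6 ± 7.20), Nos3 (71.1 ± 6.15) and Vwf (42.8 ± 4.40) were the lowest and did not overlap with their neighbours.

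In hyperoxia the order by this length changed at both ends. Eng (443 ± 65.0) and Ly6c1 (389 ± 70.5) overlapped at the top, Cdh5 (256 ± 29.8) came after them, and Kdr (196 ± 14.4) overlapped with Pecam1 (174 ± 25.2). Tek (147 ± 3.55) and Flt1 (140 ± 10.01) overlapped, Tie1 was at 124 ± 7.22, and Vwf (71.9 ± 7.54) stood above Nos3 (58.7 ± 3.64). These levels depend on the length used. With the longest transcript of each gene instead, 14 of 20 levels moved by more than 1 SD. Ly6c1 was then first and Eng second in both groups, and Nos3 was last with Vwf just above it in both. Neither end changed its order by that length.

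**Figure D4:**
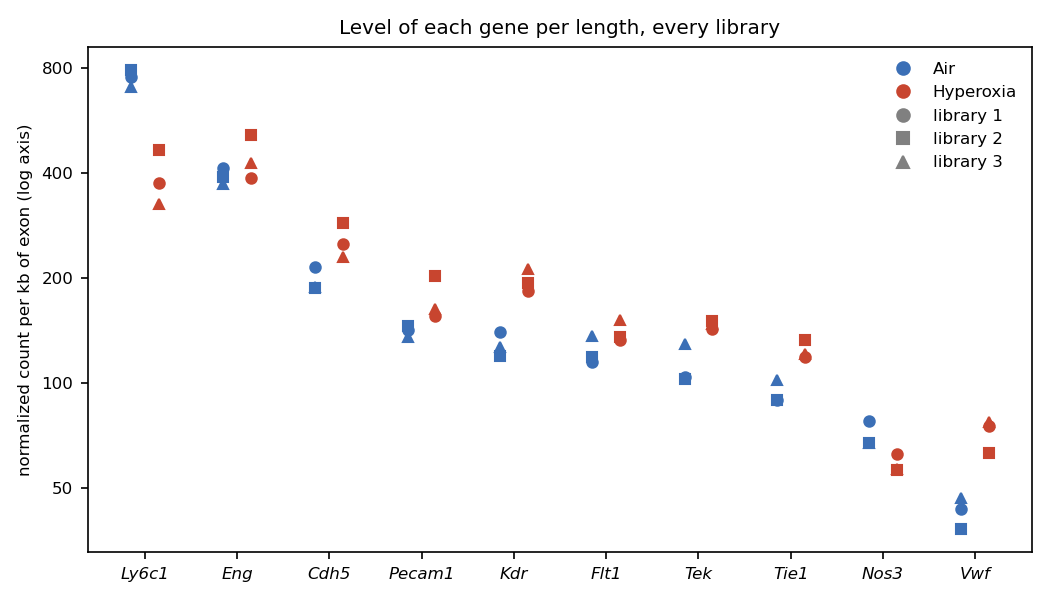
Level of each member per kilobase of exon (normalised reads per kb, log axis) in the Air and Hyperoxia groups, with each library as a point. Ly6c1 stands highest in air (mean 749, not drawn) and next to Eng in hyperoxia, while Vwf and Nos3 are the lowest in both groups.

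The genes whose pattern over the 6 libraries was nearest to the median pattern of the 10 members, by root mean square distance of centred log2 values, were Tmem246 (0.0300), Pdss2 (0.0306), Fam129b (0.0309), Amotl2 (0.0310) and C2cd2 (0.0320). Their log2 changes were 0.34, 0.29, 0.30, 0.27 and 0.30. Among the members, Tie1 (0.0675) and Pecam1 (0.0840) lay closest to that median, and Vwf (0.267), Nos3 (0.316) and Ly6c1 (0.649) lay farthest. This is a description across 17778 genes with no test.

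The ligands that Kdr and Flt1 read were examined next, with their co-receptors. Counts in this and the following lists stand beside 14.9% of all tested genes called higher and 15.6% called lower. Of the 8 tested genes of this list, 1 was called higher (Vegfa) and 0 lower, with a median log2 change of 0.03. Vegfa, the main VEGF, was 2115 ± 192 in air and 2584 ± 263 in hyperoxia, a log2 change of 0.29 ± 0.10 with a limma adjusted p of 0.048. This call was lost without Air 1 (adjusted p = 0.058), Air 2 (0.19), Air 3 (0.12), Hyperoxia 1 (0.051), Hyperoxia 3 (0.12) or Air 3 and Hyperoxia 3 together (0.23), with no filter on low genes (0.052) and without the trend (0.11), so the list then held 0 called higher. Vegfb (log2 difference 0.03, adjusted p = 0.90), Vegfc (0.10, 0.63) and placental growth factor, Pgf (-0.43, 0.058), were not called. Pgf was called lower without Air 3 (adjusted p = 0.034), without Hyperoxia 2 (0.026) and with quantile normalization (0.036), and the list then held 1, 2 and 1 genes called lower. Whether the change of Kdr differs from that of its ligand was not tested.

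For the TIE receptors, 3 of 6 tested genes were called higher and 1 lower, with a median of 0.40. Angpt1, the agonist of Tek, rose from 226 ± 9.74 to 307 ± 14.1 (log2 change 0.44, limma adjusted p = 0.0098), though it was not called without Air 3 and Hyperoxia 3 together (0.089). Ptprb (VE-PTP), the phosphatase that dampens Tek and is itself an endothelial gene, rose from 1325 ± 107 to 2048 ± 291 (0.62, adjusted p = 0.0034), and Svep1, a matrix protein that binds Tie1, rose by 1.02 (0.0039). Angpt4, at 16.5 and 6.09 normalised reads, was lower by test (limma adjusted p = 0.031), but not without Air 1 (0.12), Air 2 (0.088), Air 3 (0.068) or Hyperoxia 1 (0.070), nor by DESeq2 (0.065). Angpt2, the context-dependent antagonist, was 109 ± 15.8 in air and 142 ± 24.3 in hyperoxia and was not called (limma adjusted p = 0.13). The ratio of Angpt2 to Angpt1 did not differ beyond the spread (0.563, 0.446 and 0.448 in air, 0.552, 0.432 and 0.399 in hyperoxia, exact permutation p = 0.5).

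Several partners of Eng were called, although Eng itself was not. Of 13 tested genes of the endoglin, ALK1 and BMP9 list, 9 were called higher and 0 lower, with a median log2 change of 0.45. Id1, a target gene of this pathway, rose from 473 ± 48.6 to 743 ± 95.2 (log2 change 0.65, limma adjusted p = 0.0036). Bmper, a secreted BMP modulator (0.66, adjusted p = 0.0022), the signal carrier Smad5 (0.58, 0.0038) and the receptor Tgfbr2 (0.49, 0.0057) also rose, and these 4 were called in all 17 alternatives. The receptor gene of ALK1, Acvrl1, rose from 402 ± 21.5 to 569 ± 82.6 (0.49, limma adjusted p = 0.011), but missed the threshold without Air 2 (0.057). Many of these genes are active in most cell types of the brain, so the list is not specific to vessels.

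The other 4 calls of this list were lost in some fits with 1 library left out, and some also with another method. Such a fit has fewer libraries, so a call can be lost with little change in its size. Bmpr2 had log2 changes of 0.47, 0.42 and 0.47 without Air 1, 2 and 3, beside 0.45 in the main fit. Smad6 moved more, to 0.51 without Hyperoxia 2, from 0.69. Smad4 (log2 change 0.43, limma adjusted p = 0.014) was lost without Air 2 (0.066), Hyperoxia 1 (0.057) or the pair of Air 3 and Hyperoxia 3 (0.078). Id3 (0.38, 0.022) was lost without Air 2 (0.072), Air 3 (0.091) or that pair (0.085), and without the trend (0.064). The receptor Bmpr2 (0.45, 0.019) was lost without Air 1 (0.060), Air 2 (0.082), Air 3 (0.053), Hyperoxia 1 (0.076) or that pair (0.081). It was also lost without the trend (0.068) and after length and GC correction (0.43), where its log2 change was 0.06. The inhibitor Smad6 (0.69, 0.038), whose groups overlapped, was lost without Air 2 (0.13), Air 3 (0.12), Hyperoxia 2 (0.068), Hyperoxia 3 (0.067) or that pair (0.16). Smad6 was also lost with quantile normalization (0.051) and without the trend (0.073). The list as a whole held 4 genes called higher without Air 2 and 5 without Air 3 and Hyperoxia 3, and 1 gene was called lower without Hyperoxia 3.

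Around Nos3, 5 of 11 tested genes were called higher and 0 lower, with a median of 0.14. Cav1, the caveolar protein that binds and restrains the enzyme, rose from 670 ± 18.8 to 1018 ± 80.1 (log2 change 0.60, limma adjusted p = 0.0014). Ddah1, which clears an inhibitor of nitric oxide synthases, rose by 0.57 (0.0026), and Gucy1a1, a subunit of the nitric oxide receptor listed in the table as Gucy1a3, rose by 0.54 (0.0043). These 3 were called in all 17 alternatives, and they stood beside a Nos3 value that was lower without passing the test. In whole tissue the cells that held these transcripts could not be told apart, so this list is not specific to vessels either.

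The remaining calls near Nos3 were less stable. The second receptor subunit, Gucy1b1 (listed as Gucy1b3), changed by 0.31 on the log2 scale (limma adjusted p = 0.032) and was lost without Air 1 (0.099), Air 2 (0.10), Air 3 (0.095), Hyperoxia 1 (0.11) or Air 3 and Hyperoxia 3 together (0.12). Nos2, the inducible synthase, was low, at 32.8 ± 15.7 in air and 66.6 ± 18.9 in hyperoxia (log2 change 1.08, limma adjusted p = 0.043), and was lost without Air 1 (0.11), Air 3 (0.12), Hyperoxia 1 (0.083), Hyperoxia 2 (0.077) or Air 3 and Hyperoxia 3 together (0.086). By method, Nos2 was also lost with quantile normalization (0.052), without the trend (0.091) and with edgeR (0.0503), and Gucy1b1 without the trend (0.088). The list held 3 genes called higher without Air 1, without Air 3, without Hyperoxia 1 or without Air 3 and Hyperoxia 3, and 1 gene was called lower without Hyperoxia 2.

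Further genes of the same cell type were set beside the members, with 14.9% of all tested genes called higher and 15.6% lower. Of 17 further pan-endothelial genes, 9 were called higher and 1 lower, with a median log2 change of 0.41 beside 0.33 for the members. Ptprb is in this list and in that of the TIE receptors, so its call is counted in both. Cd93, a lectin-like surface receptor, rose the most, from 758 ± 45.1 to 1548 ± 84.7 (log2 change 1.03, limma adjusted p = 2.3e-04). S1pr1, the sphingosine phosphate receptor, fell by 0.29 (adjusted p = 0.015), a call lost without Air 1 (0.069), Air 2 (0.055), Air 3 (0.062), Hyperoxia 1 (0.060) or Air 3 and Hyperoxia 3 together (0.12), and astrocytes also carry this gene. Without Hyperoxia 2 the list held 9 called higher and 3 lower. The summed level of the 17 genes was 15352 to 15737 in air and 16855 to 17837 in hyperoxia.

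Among 12 barrier genes of brain endothelium, 5 were called higher and 3 lower, and the median was 0.05. The thyroid hormone and organic anion carrier Slco1c1 rose by 0.47 (limma adjusted p = 0.0028), while its relative Slco1a4 fell by 0.36 (0.0081). The Slco1a4 call was lost without Air 2 (0.051), and the list then held 4 genes called higher and 0 lower. Without Air 1 it held 3 and 1, and without Air 3 and Hyperoxia 3 together it held 5 and 0 (Slco1a4 adjusted p = 0.058). Of 14 endothelial transcription factors, 6 were called higher (Ets1, Fli1, Elk3, Sox7, Foxf2 and Tbx3) and 0 lower, with a median of 0.33. The number called higher was 4 to 6 when 1 library was left out and 4 to 8 over all alternatives, so not all of these calls were stable. Ets1, an ETS factor whose family reads the letters searched above, rose from 632 ± 43.2 to 942 ± 31.0 (log2 change 0.58, limma adjusted p = 0.0016) and was called in all 17 alternatives.

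**Figure D5:**
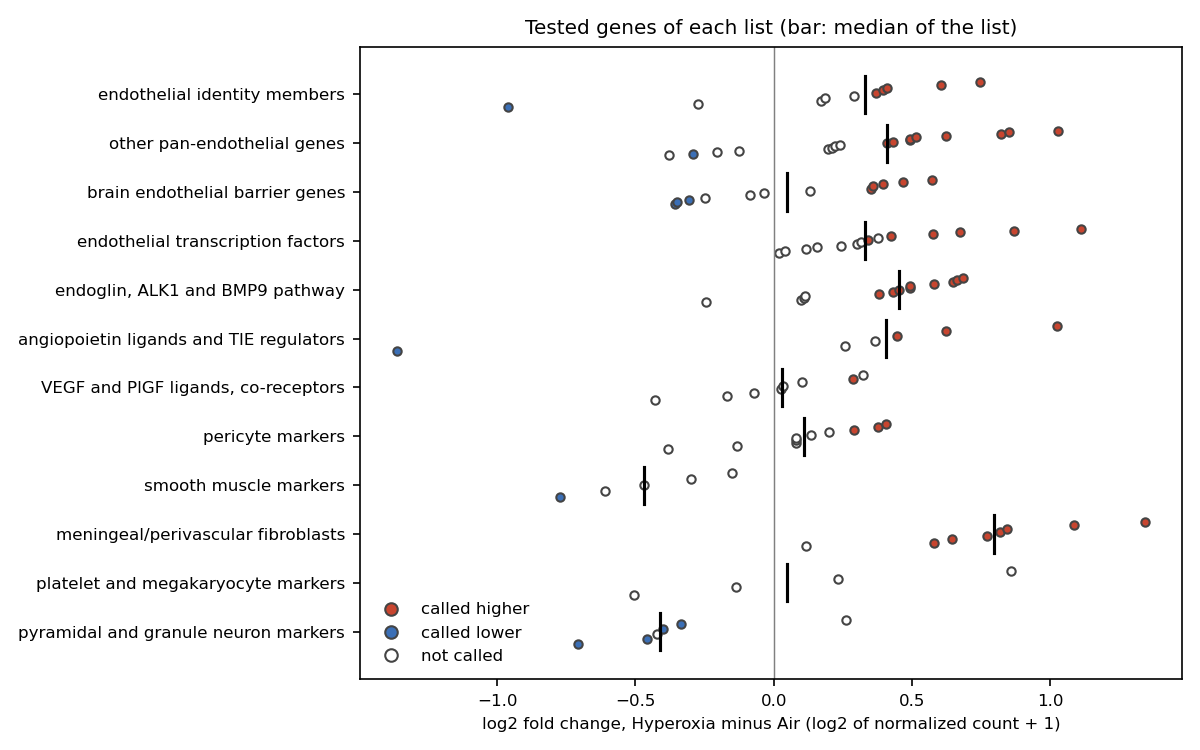
Log2 fold change of hyperoxia relative to air (horizontal axis) of the tested genes of each list, 1 point per gene, with the list median. The medians of the members (0.33) and of the other pan-endothelial genes (0.41) lie to the right of 0, that of the barrier genes (0.05) lies near 0, and that of the neuron markers (-0.41) lies to the left.

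Markers of other cell types were counted as well, beside 14.9% of all tested genes called higher and 15.6% called lower. Of 8 markers of meningeal and perivascular fibroblasts, 7 were called higher and 0 lower, with a median log2 change of 0.80 and a summed level of 7305 to 8145 in air and 10426 to 13451 in hyperoxia. Pdgfra, also a gene of oligodendrocyte precursors, made up a large part of these sums, at a mean of 3167 in air and 4737 in hyperoxia. Of 10 pericyte markers, 3 were called higher (median 0.11, sums 13305 to 13783 and 15177 to 17187), and of 6 markers of pyramidal and granule neurons 4 were called lower (median -0.41, sums 172427 to 179121 and 145711 to 151610). No gene of these lists was at 0 in every library. Without Air 1 or without Air 2, 2 neuron markers were called lower. The part of these cells in the results for the members was not tested.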

How the data were processed

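Left hippocampal RNA of 3 air-exposed and 3 hyperoxia-exposed C57BL/6 pups was made into strand-specific polyA libraries, sequenced as paired ends of 75 bases on a NextSeq 500. Per the labels' processing notes, the submitters used FastQC, STAR 2.5.3a, HTSeq and DESeq2. Build, annotation and the strand setting of counting were not stated in the sources used here. The deposited values are a signal per gene and library, made by the authors from read counts with DESeq2 size factors. The authors also deposited their own comparison, named room air against 85% oxygen, with log2 fold changes, standard errors, p-values, a mean and a test statistic. It was not used. For all 10 members its signs are opposite to those given here, as a comparison of air minus hyperoxia would have, but the order of its subtraction is not stated and the study's text gives such signs as hyperoxia against air.

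Dividing each library's values by the worth of 1 read gave whole numbers (100% within 0.01), so reads were recovered. Replicates differed by more than sampling noise (chi-square per gene 6.51 to 47.2), and none was counted as a repeat. Genes averaging 10 or more over all 6 libraries entered limma 3.58.1 (R 4.3.3, with mean-variance trend), which compared hyperoxia with air on log2 of the value plus 1, a scale that understates the change of low genes. P-values were adjusted by Benjamini-Hochberg over all tested genes, and adjusted values under 0.05 were called. Ratios were tested by exact two-sided permutation of the 6 libraries. In 17 alternatives, the pseudocount was 0.5 or 5, low genes were all kept or cut at 50, values were scaled by quantiles or TMM, limma was run without its trend, recovered reads were tested in edgeR 4.0.16 and DESeq2 1.42.0, length and GC effects were removed (mgcv 1.9.3, 17735 genes), each library was left out, and, chosen after seeing the data, Air 3 and Hyperoxia 3 were left out together. The test was checked on simulated data. Positions and lengths came from GENCODE M21 (GRCm38), which held 99.7% of the table's identifiers, and promoters from RefSeq. Other steps used Python 3.11.15 with scipy 1.17.1, numpy 2.4.6 and pandas 2.3.3.

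The members and the 22 gene lists were chosen with earlier results of these data known, so the lists are no independent support. Named were all members, Ly6c2, genes that overlap a member, the 5 genes nearest to the members' median pattern, and from each list the called gene with the largest moderated statistic in each direction. For the VEGF, angiopoietin, endoglin and eNOS lists, every called gene and the ligands Vegfa, Vegfb, Vegfc, Pgf, Angpt1 and Angpt2 were also named. Ly6a, Ttr, Pf4, Gp1bb, Itga2b, Gp5, Aif1 and the called transcription factors were named after their values were seen.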

Additional observations from a re-analysis of the deposited data

How the results depend on the processing

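All 10 endothelial genes kept their direction in all 17 alternatives, and of 170 fold changes 158 stayed on the same side of the threshold, 9 lost and 3 gained a call. The number called higher was 5, ranging from 2 to 5 when 1 library was left out, 4 without the trend, 6 with DESeq2 and 7 with length and GC correction, and the number called lower was 1 throughout. Over all genes 5425 were called, from 3048 to 7756 when 1 library was left out and 3397 without Air 3 and Hyperoxia 3. The counts were 4224 without the trend, 6191 with length and GC correction, 5501 with edgeR and 5611 with DESeq2. With 3 libraries per group, a difference near the threshold could lose its call when 1 library was left out. Such a fit also has less power at the same size of change. Whether a lost call came from the mouse left out or from the smaller number of mice was not tested. No paired analysis was possible because the deposited columns number the mice 1 to 3 in each group without tying these numbers to animals, litters or days.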

Other observations

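Genes of particular vessel segments and states were examined beside the 10 endothelial genes. Of all tested genes, 14.9% were called higher and 15.6% lower. Of 9 tested tip cell genes, which mark the leading cells of growing sprouts, 3 were called higher and 0 lower, with a median log2 change of 0.32. Nid2, a basement membrane protein, rose from 252 ± 18.3 to 516 ± 72.4 (log2 change 1.02, limma adjusted p = 7.7e-04). Of 10 arterial genes, 5 were called higher and 0 lower (median 0.36). The arterial gene Edn1, which encodes the vessel-constricting peptide endothelin 1, rose from 104 ± 15.5 to 343 ± 49.6 (1.71, adjusted p = 2.9e-04), more than any of the 10 endothelial genes. Of 7 capillary genes, 4 were called higher and 1 lower (median 0.33), with the lactate carrier Slc16a1 higher (0.64, adjusted p = 5.4e-04) and the carbonic anhydrase Car4 lower, at 1154 ± 108 against 1646 ± 82.5 (-0.52, adjusted p = 0.0028). Of 8 venous genes, 2 were called higher and 1 lower (median 0.29). Aplnr, the apelin receptor, rose from 239 ± 5.10 to 446 ± 25.6 (0.90, limma adjusted p = 4.7e-04), and Plvap, which marks permeable endothelium, fell from 344 ± 38.9 to 213 ± 37.3 (-0.70, adjusted p = 0.0072). Single libraries moved some of these counts: 5 tip cell genes were called higher and 1 lower without Hyperoxia 3, arterial genes called higher numbered 3, 2 and 3 without Air 1, Air 2 and Hyperoxia 1, and capillary genes 2 without Air 2.

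The lists of other cells gave mixed counts, beside 14.9% of all tested genes called higher and 15.6% lower. Their part in the results was not tested. Rgs5 of the pericyte list rose by 0.38 (limma adjusted p = 0.0075), and Pdgfra of the fibroblast list, also a gene of oligodendrocyte precursors, rose by 0.58 (5.9e-04). Of 5 smooth muscle markers, 1 was called lower, Mylk (-0.77, adjusted p = 0.0011), with a median of -0.47, and 3 were called lower without Hyperoxia 2. Of 6 choroid plexus markers, 1 was called higher, Aqp1 (1.61, adjusted p = 0.0036), with sums of 546 to 1421 in air and 491 to 8179 in hyperoxia. Of 2 tested blood leukocyte markers, Ptprc was called higher (0.64, limma adjusted p = 0.038), with list sums of 73.5 to 94.6 in air and 103 to 236 in hyperoxia. Ptprc was not called without Air 1 (0.14), Air 2 (0.070), Air 3 (0.088), Hyperoxia 3 (0.11) or Air 3 and Hyperoxia 3 together (0.19). Nor was Ptprc called without the trend (0.061) or after length and GC correction (0.14). Of 5 red blood cell genes, Hba-a1 was called higher (0.90, adjusted p = 0.012, lost without Air 1 at 0.058) and Hbb-bt lower (-0.51, 0.042), the latter lost without any 1 library except Hyperoxia 2 (0.060 to 0.17) and without Air 3 and Hyperoxia 3 together (0.091). Without the trend both were lost (Hba-a1 0.05005, Hbb-bt 0.073), and Hbb-bt was lost after length and GC correction (0.095). Of 6 microglia markers 2 were called higher, led by Cx3cr1 (0.42, limma adjusted p = 0.0029). Aif1 was lower without passing the test (-0.39, limma adjusted p = 0.054). With low genes cut at 50, with quantile normalization or without the trend, 1 microglia marker was called lower. Of 6 astrocyte markers 2 were called higher, led by Aqp4 (0.53, adjusted p = 0.0019), and 1 lower, S100b (-0.40, 0.043), a call lost without any 1 library except Hyperoxia 2 (0.070 to 0.15) and without that pair (0.23). S100b was also lost with quantile normalization (0.056), without the trend (0.11), with edgeR (0.051) and after length and GC correction (0.053). Of the neuron list, Neurod2 was the member with the largest statistic (-0.71, limma adjusted p = 0.0010). Without Hyperoxia 2, 1 pericyte and 1 microglia marker were also called lower and 1 neuron marker higher, and without Hyperoxia 3, 1 choroid plexus marker was called lower.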
